A study of Homo sapiens with 2 samples.

Results

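VCAM1, ICAM1, ALCAM, L1CAM, PECAM1, MCAM, NRCAM and JAM3 encode cell adhesion molecules of the immunoglobulin superfamily, and their transcripts were read in MDA-MB-231 cells with and without knockdown of UGT8. The genes were taken as named members, and each was read by every probe set whose only gene symbol in the platform annotation was that gene. All 8 genes had at least 1 such probe set, 26 in total, out of 18244 genes and 45278 probe sets with 1 symbol. The genes were chosen with their differences known, so the values below describe them and test nothing.

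The knockdown cells were a clone of the MDA-MB-231 line, a human line from a breast carcinoma that lacks hormone receptors and looks mesenchymal, in which UGT8 had been stably knocked down. The control cells were the parental line, and the labels name neither the reagent used for the knockdown nor a vector control. UGT8 encodes the ceramide galactosyltransferase that makes galactosylceramide, the precursor of sulfatide. Both cultures were grown in DMEM with 5.6 mmol/L glucose and harvested 48 h after passage, per the labels, and no other agent is named for either. Each group was 1 array, so no difference has a replicate check, no test was run, and the knockdown cannot be told apart from effects of the clone or of any vector or selection. In such bulk RNA, fewer cells with a transcript and less of it per cell cannot be told apart either.

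Molecules of this superfamily carry immunoglobulin-like domains outside the cell, a membrane span and, in these 8 genes' products, a short cytoplasmic tail. They hold cells together by binding a like molecule on the next cell, another member of the superfamily, or an integrin. In blood vessels VCAM1, ICAM1, PECAM1 and JAM3 guide leukocytes onto and through the endothelium, whereas L1CAM and NRCAM are best known from axon growth. Carcinoma and melanoma cells can express several of them, VCAM1, ALCAM, L1CAM and MCAM among them. VCAM1 and ICAM1 are textbook targets of NF-kappaB, which cytokines such as TNF and interleukin-1 activate.

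The promoters of VCAM1 and ICAM1 are shown because both genes answer to NF-kappaB in other cells while their transcripts differed here by unequal amounts. The windows come from RefSeq on GRCh38.p14, plus strand, end at the base before the annotated start site, and are written 5′ to 3′. Capitals mark matches to a kappaB form and to the TATA box TATAAA on the plus strand.
VCAM1, chr1:100719642-100719741: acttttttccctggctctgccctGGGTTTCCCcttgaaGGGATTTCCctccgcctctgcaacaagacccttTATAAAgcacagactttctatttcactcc
ICAM1, chr19:10270920-10271119: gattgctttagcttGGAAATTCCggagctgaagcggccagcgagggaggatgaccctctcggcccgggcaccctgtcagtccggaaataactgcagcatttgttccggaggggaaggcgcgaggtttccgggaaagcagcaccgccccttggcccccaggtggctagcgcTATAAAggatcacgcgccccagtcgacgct
The VCAM1 window held the letters GGGNTTNCC in 2 neighbouring matches, GGGTTTCCC from -77 to -69 and GGGATTTCC from -62 to -54, counted from the start site. The ICAM1 window held the other form searched, GGAAATTCC, in 1 match from -186 to -178. Each was searched on both strands of 300 bases, 250 before and 50 after a start site. The first occurred in 5.29% and the second in 0.461% of 35116 such windows, and 0.322% held the first at least 2 times. TATAAA lay from -29 to -24 in VCAM1 and from -30 to -25 in ICAM1, and occurred in 11.5% of windows. In VCAM1 it also matched on the minus strand from -31 to -26, overlapping the capitals, and from -205 to -200.

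Of the 8 genes, 6 had a promoter window in the RefSeq table, and PECAM1 and JAM3 were not matched. GGGNTTNCC also occurred in L1CAM, as GGGCTTACC at 1 genomic place, chrX:153876023-153876031, that 2 of its windows share, and in MCAM, as GGGCTTCCC from 33 to 41 after its start site. The GC box GGGCGG occurred in ALCAM, NRCAM, MCAM, ICAM1 and L1CAM on one strand or the other, and in 45% of all windows. TTCNNNGAA, the core of a STAT site, occurred in ICAM1 from -75 to -67 and in 7.66% of windows. The motifs were chosen with these sequences in view, and a match is a description of letters.

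Levels are RMA values on the log2 scale, and each difference is the knockdown value minus the control value, so that a difference of -1 is 2-fold lower in the knockdown cells. Mean levels over both arrays had a median of log2 6.64 across the probe sets other than controls, which served as a floor, and a gene counted as past it by its brightest probe set. The 10439 genes past the floor had a median difference of 0.03. Levels of different probe sets are not compared, since each probe set has its own brightness. The summed signals of marker lists below do add such levels, dim ones included. A gene's part in such a sum therefore depends on the brightness of its probe set. Where a gene had 2 or more probe sets past the floor, their differences varied with an SD whose median over genes was 0.083, which is no replicate error.

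UGT8 itself was lower in all 3 of its probe sets, and its brightest read 6.61 on the knockdown array and 8.95 on the control array (-2.34). All 9 genes listed as high in MDA-MB-231 cells were past the floor, with VIM at 13.9 on both arrays, a median difference of -0.15 and ZEB1 lower (-0.77). Of 10 luminal genes listed as low in these cells, 8 were nonetheless past the floor, the keratin genes KRT19 (12.2 on the knockdown and 12.6 on the control array), KRT18 (12.0 and 11.9) and KRT8 (11.3 on both) among them. Their median was 0.05, with EPCAM higher (0.62). The oestrogen receptor gene ESR1 (6.30 and 6.31) and the progesterone receptor gene PGR (3.45 and 3.37) lay below it. The median difference of the control RNAs added at hybridisation was 0.51, and on a scale centred on them every difference is lower by 0.51, so that each value given below between 0 and 0.51 turns negative there. The 3′ reading of ACTB exceeded its 5′ reading by 0.90 on the knockdown array and by 0.49 on the control array, and that of GAPDH by 0.19 and 0.18. The part of these readings in the differences below was not tested.

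VCAM1 and PECAM1 stood apart from the other members. VCAM1 was 4.53-fold lower and PECAM1 2.12-fold lower on the knockdown array by their brightest probe sets. ICAM1, NRCAM and ALCAM were lower by 1.39-fold, 1.24-fold and 1.17-fold. L1CAM differed by 1.03-fold and MCAM by 1.29-fold in the other direction, and JAM3 was below the floor on both arrays. Of the 7 members past the floor, 5 were lower, beside 45.8% of all genes past the floor, and 2 were higher, with a median of -0.31. Members at least 2-fold lower numbered 2, beside 1.54% of all genes past the floor, and none was at least 2-fold higher, beside 0.738%. Nothing is read from these counts, because the members were chosen on the same contrast.

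**Figure D1:**
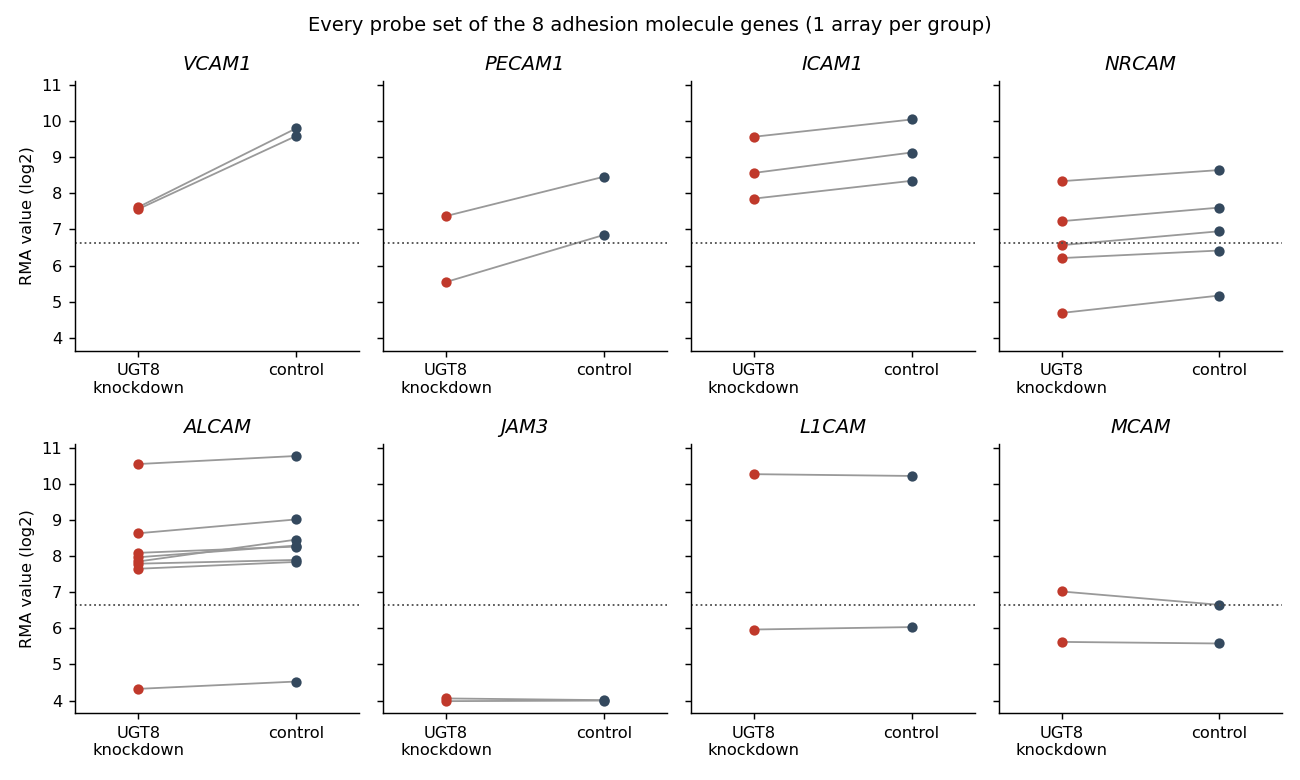
RMA values (log2, vertical axis) of every probe set of the 8 genes on the UGT8 knockdown array (red, left) and the control array (dark, right), with a grey line joining the readings of 1 probe set and a dotted line at the floor of 6.64. Both VCAM1 lines and both PECAM1 lines drop toward the knockdown side, the ICAM1, NRCAM and ALCAM lines slope slightly the same way, and the JAM3 points lie near 4 on both arrays.

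VCAM1 encodes the vascular cell adhesion molecule, an endothelial ligand of the integrin formed by the products of ITGA4 and ITGB1. Its brightest probe set, 11757425_s_at, read 7.62 on the knockdown array and 9.79 on the control array, a difference of -2.18. The other, 11719675_a_at, read 7.56 on the knockdown array and 9.58 on the control array, a difference of -2.02. Both probe sets were past the floor on both arrays, and both were at least 4-fold lower in the knockdown cells. The knockdown signal was 22.1% of the control signal by the brightest probe set. The difference averaged -2.10 ± 0.11 over the probe sets (SD, n = 2 probe sets of 1 pair of arrays, no replicates). By its brightest probe set VCAM1 ranked 5 from the lowest among the 10439 genes past the floor.

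PECAM1 encodes platelet endothelial cell adhesion molecule, which binds itself at the junctions of endothelial cells and also occurs on platelets and leukocytes. Its brightest probe set, 11757545_x_at, read 7.37 on the knockdown array and 8.46 on the control array (-1.09), or 47.1% of the control signal. The second, 11720644_a_at, read 5.54 on the knockdown array and 6.85 on the control array (-1.30). That second probe set was below the floor on mean level, so without probe sets marked for possible cross-hybridisation PECAM1 no longer counted as past it. The suffixes _s_at and _x_at mark probes that may bind more than 1 transcript. Both probe sets pointed the same way, and 1.10% of the genes past the floor differed by a lower value than PECAM1.

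ICAM1 encodes the intercellular adhesion molecule that binds the leukocyte integrins built on ITGB2. Its 3 probe sets read 9.56, 8.56 and 7.85 on the knockdown array, against 10.04, 9.13 and 8.34 on the control array. All 3 were lower on the knockdown array, by -0.48, -0.57 and -0.49, and none reached 1.5-fold. These differences lay within 0.09 of each other and averaged -0.51 ± 0.05 (SD, n = 3 probe sets). The lowest ICAM1 probe set and the nearest VCAM1 probe set lay 1.46 apart, a gap wider than the range of 0.16 within VCAM1 and of 0.09 within ICAM1. With 1 array per group it cannot be set against a spread between samples.

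**Figure D2:**
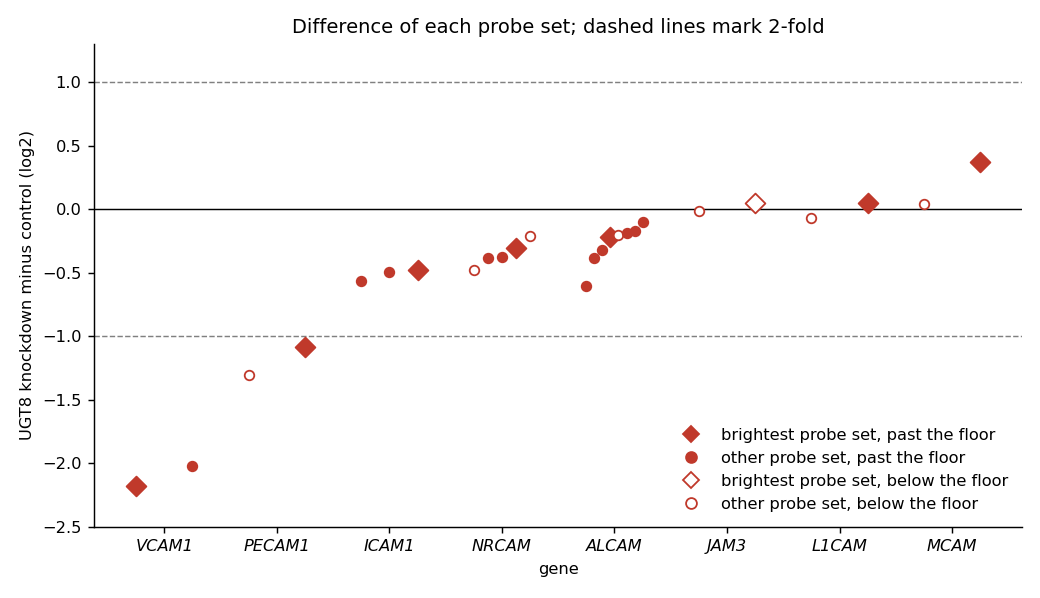
Difference of each probe set (log2, UGT8 knockdown minus control, vertical axis) by gene, ordered by the brightest probe set, with diamonds for the brightest probe set of a gene, circles for the others, filled symbols for probe sets past the floor and open ones for those below it. Both VCAM1 symbols lie below -2 and both PECAM1 symbols between -1 and -1.30, while the probe sets of the other 6 genes lie between -0.60 and 0.37.

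NRCAM encodes a neuronal molecule of the L1 family whose tail binds ankyrins. Its brightest probe set read 8.33 on the knockdown array and 8.64 on the control array (-0.31). The other 4 were lower too, by amounts between -0.21 and -0.48, and 3 of the 5 were past the floor. Over all 5 the difference averaged -0.35 ± 0.10 (SD, n = 5 probe sets), and none reached 1.5-fold.

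ALCAM encodes the activated leukocyte cell adhesion molecule, which binds itself and the T cell receptor CD6. Its brightest probe set read 10.5 on the knockdown array and 10.8 on the control array (-0.22). All 8 were lower on that array, between -0.10 and -0.60. The probe set 11716183_a_at, with 7.85 on the knockdown array and 8.45 on the control array, was the 1 of the 8 that reached 1.5-fold, at 1.52-fold. The 8 averaged -0.27 ± 0.16 (SD, n = 8 probe sets), and their range of 0.50 was the widest of the members.

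L1CAM encodes the founding member of the L1 family, which binds itself and integrins that recognise RGD peptides. Its brightest probe set read 10.3 on the knockdown array and 10.2 on the control array (0.05). The other read 5.97 on the knockdown array and 6.03 on the control array (-0.07) and was below the floor. The pair differed in sign, and both differences were smaller than the median SD between probe sets of a gene.

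MCAM encodes the melanoma cell adhesion molecule, also found on endothelium and pericytes. Its brightest probe set, 11724459_x_at, read 7.02 on the knockdown array and 6.65 on the control array (0.37). The other read 5.62 on the knockdown array and 5.58 on the control array (0.04), below the floor. The higher reading thus came from a single _x_at probe set, and MCAM was below the floor when such probe sets were left out. JAM3 encodes a junctional adhesion molecule of endothelial and epithelial contacts. Its probe sets read 4.058 and 3.983 on the knockdown array and 4.011 and 3.999 on the control array. Both lay under the lower quartile of probe sets on their array (4.802 on the knockdown and 4.790 on the control array), so JAM3 was not measured above the dim probe sets of either.

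Across the members, 22 of the 26 probe sets, dim ones included, read lower in the knockdown cells and 4 read higher. No share over all probe sets was counted beside it, so nothing is read from that count. Past the floor, 16 of 18 were lower, beside 47.4% of all probe sets with 1 symbol past the floor. The numbers of probe sets per gene differ, and ALCAM with 7 and ICAM1 and NRCAM with 3 each make up most of the 18. VCAM1, PECAM1, ICAM1, NRCAM and ALCAM had every probe set lower, and the share of all genes with every probe set lower was not counted. At 1.5-fold, VCAM1 and PECAM1 were the members counted as lower, beside 6.74% of genes past the floor, and none was counted as higher, beside 4.96%.

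**Figure D3:**
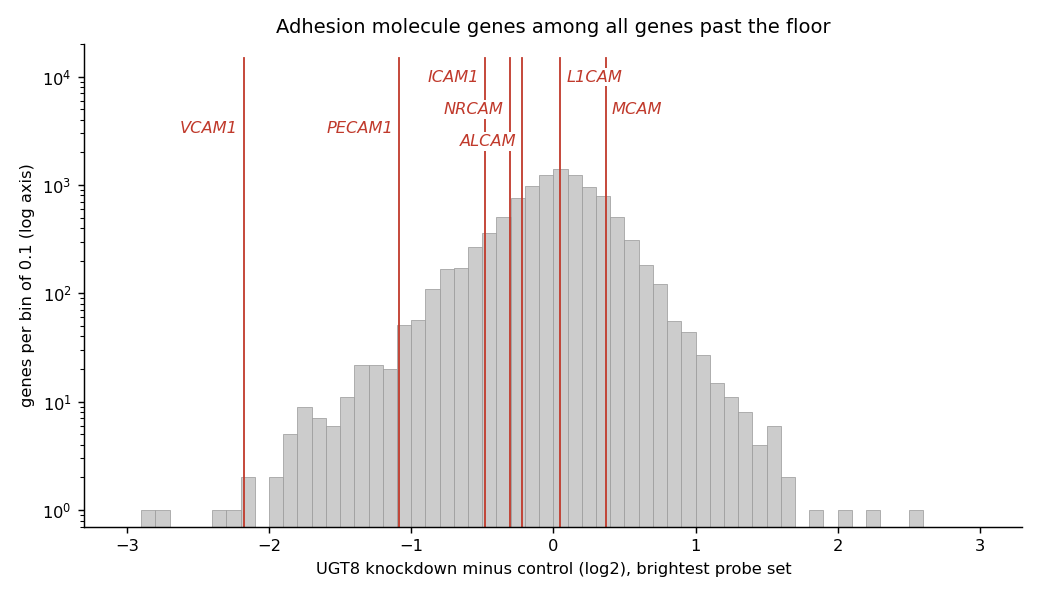
Histogram of the difference (log2, UGT8 knockdown minus control, horizontal axis) of the 10439 genes past the floor, with the number of genes per bin of 0.1 on a log axis and red lines at the 7 members past the floor. VCAM1 at -2.18 lies among the last genes of the lower tail and PECAM1 at -1.09 in that tail, while the other 5 lie in the body between -0.48 and 0.37.

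The directions of VCAM1, PECAM1, ICAM1, NRCAM and ALCAM held under all 6 other readings and scalings tried, hybridisation controls included. VCAM1 ranged over them from -2.69 to -2.02 and PECAM1 from -1.60 to -1.10. L1CAM was below 0 under 3 of the 6, JAM3 under 2 and MCAM under 1. Centring on the hybridisation controls gave -0.46 for L1CAM, -0.14 for MCAM and -0.47 for JAM3.

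**Figure D4:**
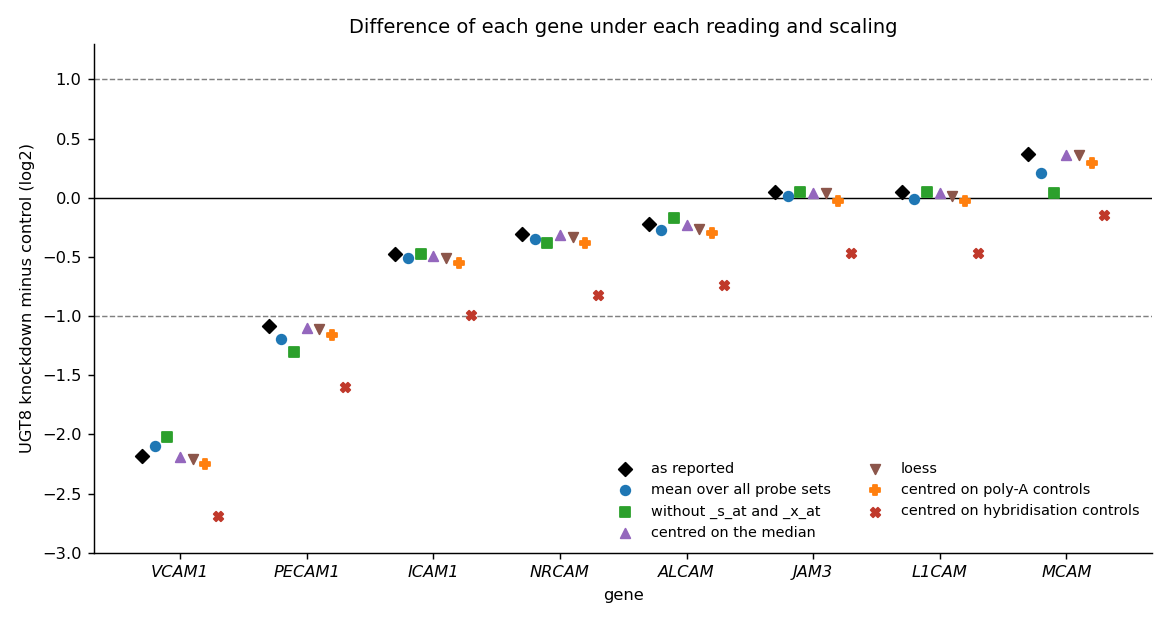
Difference (log2, UGT8 knockdown minus control, vertical axis) of the 8 genes as reported, after averaging all probe sets, without probe sets marked for cross-hybridisation, and after centring on the median, by loess, on the poly-A controls or on the hybridisation controls. VCAM1 stays at or below -2.02 and PECAM1 at or below -1.09 throughout, and centring on the hybridisation controls puts L1CAM, MCAM and JAM3 below 0.

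Other adhesion genes of the superfamily were read beside the members. Of 50 listed, 47 had a probe set with 1 symbol and 23 were past the floor. Of these 23, 14 were lower and 9 higher, with a median of -0.18 beside 0.03 over all genes. For this list and those below, 45.8% of all genes past the floor were lower. At least 1.5-fold lower were 6.74% of them, and at least 1.5-fold higher 4.96%. Nothing is read from the counts of the lists, which were chosen with earlier results known. At 1.5-fold, 1 was lower, CADM1 (-0.60), a molecule of epithelial and synaptic contacts. Also at 1.5-fold, 2 were higher. MPZL2, a homophilic molecule first known from the thymus, read 7.55 on the knockdown array and 6.52 on the control array (1.03). That control reading lay under the floor, and the second MPZL2 probe set, below the floor on mean level, differed by 0.49. ICAM2, a ligand of the integrin LFA-1 found on endothelium and platelets, read 9.33 on the knockdown array and 8.35 on the control array (0.98). The 4 ICAM2 probe sets past the floor were higher by 0.83 to 1.07, and the 1 below it was lower by -0.18. Centring on the hybridisation controls lowers the list's median to -0.69.

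Members of 1 subfamily did not all point one way, as a look at them after their values were seen showed. In the ICAM group, ICAM1 (-0.48) and ICAM5 (-0.52) were lower, whereas ICAM2 (0.98) and ICAM3 (0.28) were higher, and ICAM4 was below the floor. The values of ICAM5 and ICAM3 rested on their brightest probe sets, and the means over all probe sets were -0.15 for ICAM5 and 0.07 for ICAM3. In the L1 family, NRCAM was lower (-0.31) and L1CAM was near 0, while NFASC (5.44 on the knockdown and 5.52 on the control array) and CHL1 (4.34 and 4.22) were below the floor. JAM2, the binding partner of JAM3, was below it too (4.75 on the knockdown and 4.85 on the control array).

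Of the 22 counter-receptors and ligands of the members, 9 were past the floor. Of these, 8 were lower and 1 higher, beside 45.8% of all genes past the floor that were lower. At least 1.5-fold lower were 4, beside 6.74% of those genes, and the median was -0.57. The integrin subunit genes ITGB3 (-1.36), ITGB2 (-0.88) and ITGAV (-0.79) and the L1CAM partner NRP1 (-0.76) were those 4. The VCAM1 receptor subunit ITGA4 read between 2.94 and 3.74 on the knockdown array and between 2.98 and 3.74 on the control array over 5 probe sets, all under the lower quartile of each array. Its partner ITGB1 read 13.5 on both arrays (0.03). ITGAL, which pairs with ITGB2 to bind ICAM1, was below the floor (5.44 on the knockdown and 5.36 on the control array). The gene at the list's median was LAMA4, with 1 of 4 probe sets lower and a mean of -0.10 over them. With a floor at percentile 75 the list's median was -0.34, at percentile 25 it was -0.09, and with no floor -0.07. Without _s_at and _x_at probe sets it was -0.47.

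Sheddases that cut these molecules from the cell surface were lower as well. Of 15 genes of sheddases, their cofactors and inhibitors past the floor, 13 were lower and 2 higher, with a median of -0.34. Beside them, 45.8% of all genes past the floor were lower. At least 1.5-fold lower were 4, beside 6.74% of all genes past the floor. ADAM10, which sheds L1CAM, read 8.75 on the knockdown array and 9.54 on the control array (-0.79), and its 4 probe sets were lower by -0.59 to -0.79. ADAM17, which sheds VCAM1, differed by -0.34, with all 4 probe sets lower. The metalloprotease genes ADAM8 (-0.90) and ADAM9 (-0.78) and TIMP3 (-0.82), which encodes an inhibitor of ADAM17, were also lower. PSENEN, a subunit of gamma-secretase, was the 1 gene at least 1.5-fold higher (0.68).

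The linkers that tie the cytoplasmic tails to the cytoskeleton were mixed. Of 17 past the floor, 6 were lower and 11 higher, with a median of 0.09, or -0.42 after centring on the hybridisation controls. CTTN, which encodes the actin regulator cortactin, was higher (0.83), and the ankyrin gene ANK2 was lower (-0.76). ANK3, the ankyrin gene known for binding L1 family tails, read 7.94 on the knockdown array and 7.53 on the control array (0.41), with all 4 probe sets higher. ANK2 had 1 of 5 probe sets past the floor. Of the ezrin group, EZR (0.32) and RDX (0.23) were higher and MSN (-0.24) lower.

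Most regulators of VCAM1 and ICAM1 transcription differed by less than 1.5-fold, some of them narrowly. Of 29 past the floor, 18 were lower and 11 higher, with a median of -0.31, and IL1R1 was the 1 that reached 1.5-fold. BCL3 (-0.578), NFKBIA (-0.574), IFNGR1 (-0.570) and GATA6 (-0.533) lay just short of it. The BCL3 value came from an _x_at probe set, and 3 of its 4 probe sets were lower, with a mean of -0.28 over them. IL1R1, the receptor of interleukin-1, read 9.01 on the knockdown array and 9.94 on the control array (-0.94), and its second probe set, below the floor, differed by -0.09. NFKB1 was 1.28-fold lower (-0.36). RELA was near 0 by its brightest probe set (0.07) and lower by -0.26 and -0.27 in the other 2. NFKBIA, the inhibitor that NF-kappaB itself induces, differed by -0.57, TNFAIP3, another induced inhibitor, by -0.42, and IRF1, an interferon-induced transcription factor, by -0.42. Among the 11 higher regulators were KLF2 (0.29), GATA2 (0.22) and TNFRSF1B (0.22), with no probe set lower. The TNF gene was below the floor (4.44 on the knockdown and 4.49 on the control array), and IL1B read 12.7 on the knockdown array and 12.5 on the control array (0.13).

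In the list of selectins and other leukocyte adhesion genes, 8 were past the floor, none of them a selectin gene. Of these 8, 7 were lower and 1 higher. Their median was -0.28, and the list's median was -0.07 with a floor at percentile 25 and -0.06 with none. CCL2, below the floor, read 5.60 on the knockdown array and 5.03 on the control array. CXCL8, the neutrophil chemokine gene, was lower (-0.73), as was CD99L2 (-0.61), a molecule of leukocyte passage. The endothelial selectin gene SELE, which cytokines induce beside VCAM1, was below the floor (6.01 on the knockdown and 5.92 on the control array). The selectin gene SELP was below it too (3.92 on both arrays).

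**Figure D5:**
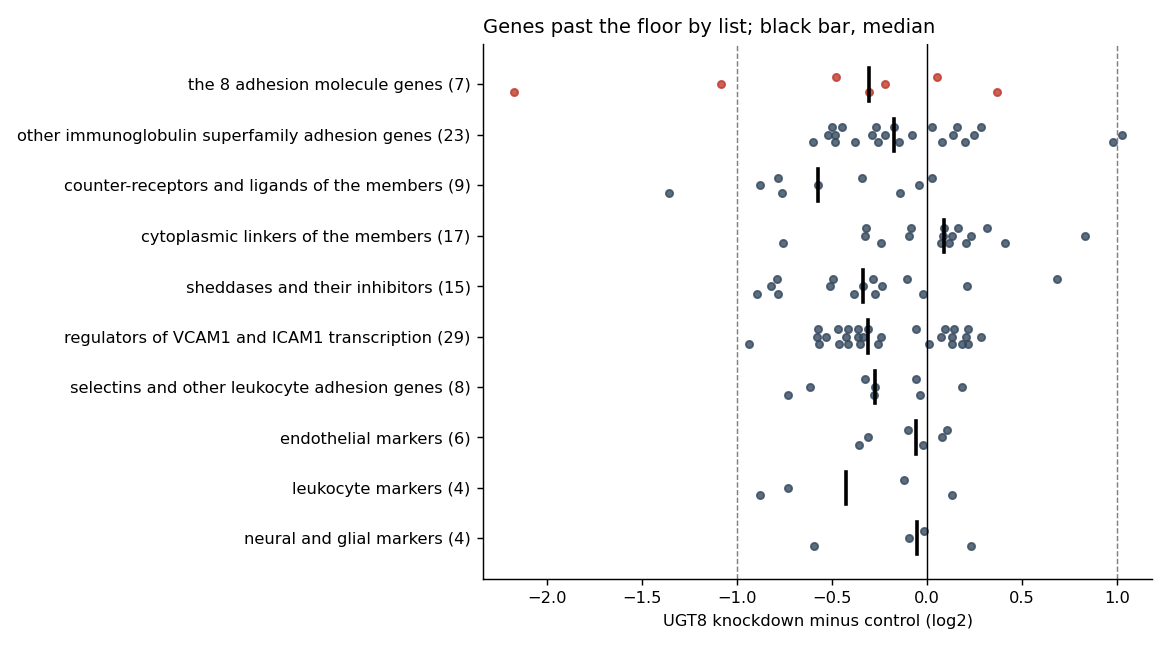
Difference (log2, UGT8 knockdown minus control, horizontal axis) of genes past the floor, read by the brightest probe set, with a row for the members (red) and one for each of 9 gene lists (dark), the number of genes in brackets and black bars at the medians. VCAM1 and PECAM1 lie left of the other members, the counter-receptor median, which is the reading of LAMA4, is at -0.57, and the endothelial median is at -0.06. Not drawn are the lists of fibroblast (median -1.33), melanocyte (0.15) and smooth muscle and pericyte markers (0.25). The lists of genes high (-0.15) and low (0.05) in MDA-MB-231 cells are not drawn either.

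Because several members mark endothelium, leukocytes, nerve or pericytes, markers of those cells were read beside them. Of 15 endothelial markers, 6 were past the floor, none differed by 1.5-fold, and their median was -0.06. Well past the floor were ROBO4 (9.11 on the knockdown and 9.13 on the control array), EGFL7 (8.76 and 9.07) and ESAM (8.41 and 8.34). KDR, TIE1 and ENG lay nearer to it. Of the 6, 4 were lower and 2 higher. CDH5 (4.61 on both arrays), CLDN5 (3.90 on the knockdown and 3.86 on the control array) and VWF (6.26 and 6.42) were among the 9 below the floor. The summed linear signal of the endothelial list, in which bright probe sets weigh most, was 1893 on the knockdown array and 2022 on the control array. Of 14 leukocyte markers with a probe set, 4 were past the floor with a median of -0.43, with ITGB2 (-0.88) and CD14 (-0.73) lower, CD68 at 0.13, TYROBP at -0.12 and PTPRC (3.40 on the knockdown and 3.56 on the control array) among the dim. The leukocyte median was -0.03 with a floor at percentile 25, 0.07 with none and 0.13 with a floor at percentile 75, so its sign turned with the floor. The summed signal of the 14 was 1497 on the knockdown array and 1611 on the control array. Of that signal ITGB2, also listed among the counter-receptors, gave 146 on the knockdown and 268 on the control array, and CD68 gave 703 and 643.

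Of 10 fibroblast markers, 4 were past the floor and all 4 were lower (median -1.33). COL3A1 (-1.53), LUM (-1.34) and COL6A3 (-1.32) were at least 2-fold lower, beside 1.54% of all genes past the floor. The median was -0.88 with a floor at percentile 25 and -0.22 over all 10. The summed signal of the 10 was 1474 on the knockdown array and 3282 on the control array, of which COL6A3 alone gave 961 and 2400. FAP, PDGFRA, THY1, COL1A1, COL1A2 and DCN were below the floor on both arrays. Of 14 neural and glial markers, 4 were past the floor (median -0.06), with MBP lower (-0.59). Their summed signal, over all 14, was 2521 on the knockdown array and 2977 on the control array. Of that signal MBP gave 974 on the knockdown and 1469 on the control array, and TUBB3 gave 903 and 770. The neural median was 0.23 after averaging all probe sets of a gene and -0.30 without _s_at and _x_at probe sets. The 3 melanocyte and 5 smooth muscle and pericyte markers past the floor read higher by their brightest probe sets, with medians of 0.15 and 0.25, and none by 1.5-fold. Centring on the hybridisation controls turns both medians below 0 (-0.36 and -0.27). Averaged over all probe sets, NOTCH3 differed by -0.43 and ACTA2 by -0.05. The pericyte gene PDGFRB, just below the floor, differed by -0.75 by its brightest probe set, with all 3 probe sets lower. The summed signals of the melanocyte and smooth muscle lists were 881 on the knockdown and 758 on the control array for melanocytes, and 1383 and 1185 for smooth muscle and pericytes. No marker is at 0 in RMA values, and the part of any marker list in the members' differences was not tested.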

How the data were processed

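Total RNA was extracted with Trizol and labelled as biotinylated cRNA by the Affymetrix protocol, per the labels' protocols. The deposited values are log2 values made by RMA, per the submitters' processing notes. RMA removes background, brings both arrays to 1 distribution and condenses the probes of each set into 1 value. The software version and the build: not given in the sources used here. Probe sets were named through the platform annotation. Of 49495, 102 were controls, 45278 had 1 symbol, 1333 several and 2782 none.

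Python 3.11.15 with pandas 2.3.3, numpy 2.4.6 and statsmodels 0.14.6 computed differences, counts at 2-fold and list medians, tested on simulated data. The probe set brightest over both arrays stood for a gene. With 1 array per group no p-value is given. The members, the 14 gene lists and the motifs were chosen with earlier results of these data known. Named were the members, UGT8, up to 4 genes per list of at least 1.5-fold past the floor, and ITGA4, ITGB1, ADAM17, ADAM10, NFKB1, RELA and ANK3. Others were named after their values were seen. Alternatives changed the fold, the floor, the reading of a gene, the probe sets and the centring (loess fraction 0.3).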

Additional observations from a re-analysis of the deposited data

How the results depend on the processing

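No paired analysis was possible because each group is 1 array, so no replicate could be left out either. VCAM1 differed by -2.69 after centring on the hybridisation controls and by -2.02 when _s_at and _x_at probe sets were left out. Members at least 3-fold lower numbered 1. Members at least 2-fold lower numbered 1 with a floor at percentile 75 and without those probe sets, PECAM1 being the one lost each time. Genes lower and higher numbered 704 and 518 at a threshold of 1.5-fold and 29 and 7 at 3-fold, against 161 and 77 at 2-fold as reported. At 2-fold they numbered 966 and 11 on the hybridisation controls, 84 and 21 with a floor at percentile 75, and 99 and 46 after averaging. Genes at least 2-fold higher numbered 117 with a floor at percentile 25 and 118 with no floor. The differences of VCAM1 and PECAM1, the members of at least 1.5-fold, kept their sign under each alternative run; genes other than the members were not followed one by one. Centring on the hybridisation controls moved the median of all genes by -0.51. The cause of the other changes was not tested. The fewer genes of a higher floor follow from its construction, and dim probe sets such as those of JAM3 limit what can be read.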

Other observations

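MAP2, a neural marker, read 5.27 on the knockdown array and 6.90 on the control array (-1.63), below the floor on mean level. CNN1, a smooth muscle marker, read 7.09 on the knockdown array and 5.99 on the control array (1.10), also below it. NCAM2, an adhesion gene of the superfamily, read 4.87 on the knockdown array and 5.55 on the control array (-0.68), with all 4 probe sets lower. For ITGA4, ITGAL and ANK2, at least 1 probe set had the same value on both arrays, so their differences of 0 come from readings that were identical as deposited. The brightest probe sets of PDGFRA, CD34, SELP and CNTN3, all below the floor, also read the same on both arrays. Such identical readings are thus not particular to 1 of these genes.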
